A study of Homo sapiens with 4 samples.

Results

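The tumour necrosis factor (TNF) superfamily was followed in parental SUM159 cells and in NOS2KO clones of the same line, with 1 parental library and 3 clone libraries (clones 1, 5 and 6). SUM159 is a triple-negative breast cancer line that the study treats as metaplastic breast cancer, and NOS2 encodes the inducible nitric oxide synthase iNOS. The genes were those protein-coding symbols of GENCODE release 29 that begin with TNFSF (ligands) or TNFRSF (receptors) followed by a number, together with TNF, LTA, LTB, LTBR, CD40, FAS, FASLG, CD27, CD70 and EDA2R. This rule found 42 genes, 16 ligands and 26 receptors, among 57500 in the files. Per the labels, the clones were derived by transfection of a NOS2 double nickase plasmid followed by puromycin, and were picked by iNOS immunoblot and nitrite/nitrate assay. Each knockout line is 1 clone, and the labels name no control clone carried through transfection and puromycin, so differences between single clones and the uncloned line cannot be told apart from an effect of the targeting.

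TNF superfamily ligands are mostly trimeric transmembrane proteins that can be shed, and their receptors carry cysteine-rich extracellular repeats. Receptors with a cytoplasmic death domain (TNFRSF1A, FAS, TNFRSF10A, TNFRSF10B, TNFRSF21 and TNFRSF25) can recruit caspase-activating adaptors, while most others bind TRAF proteins and feed into NF-kappaB and JNK signalling. Decoy receptors bind ligand without passing on a death signal. In breast epithelium the family is known for RANK signalling in mammary development, and in tumours for TRAIL-induced apoptosis and for TNF as an inflammatory cytokine.

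The counts on genes lay between 90467395 and 122171287 per library. NOS2 had 2 counts in parental cells, against 3 in the clone 1 library, 18 in that labelled clone 5 and 1 in that of clone 6. The highest count was thus in a knockout library. Counts this low cannot check the label, and the clones were picked by iNOS protein and nitrite/nitrate, not by mRNA. The library with 18 counts is called "labelled" clone 5 wherever a direction is drawn from it. As markers of the line, VIM (1655 CPM in the parental library, 2889.9 to 3855 in the clones) and CD44 (454.2 and 784.7 to 827.3) were higher in every clone, and EGFR (206.8 and 114.3 to 162.1) was lower. PGR had at most 3 counts in any library and ESR1 at most 0.741 CPM, while ERBB2 lay between 48.3 and 106.2 CPM. Of the epithelial markers, KRT18 had at least 303.0 CPM in every library, and EPCAM and CDH1 at most 0.413 CPM. For cells that often express these ligands, the T cell genes CD3D, CD3E and CD3G summed to 20 counts or fewer in each library. PTPRC, the leukocyte phosphatase CD45, was at 4.45 CPM in parental cells, against 68.4 in the clone 1 library, 105.4 in that labelled clone 5 and 41.7 in that of clone 6. Of the myeloid genes, CD14 was at 12.8 CPM in the parental library and 2.29 to 11.3 in the clones, while CSF1R had 19 counts against 16 to 57 and LYZ 1 count against 3 to 49. Of the endothelial markers, PECAM1 was at 16.1 CPM in the parental library and 7.06 to 13.9 in the clones, while VWF (0.210 against 0.279 to 3.80 CPM) and CDH5 (0.0111 against 0.105 to 3.49 CPM) were higher in every clone. The part of these markers in the results below was not tested.

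The comparison asks which members of the family differ between the parental library and the libraries labelled NOS2KO. Of the 42 genes, 33 passed the expression filter (11 ligands and 22 receptors). A gene could pass through 1 library alone, as EDA2R did through the parental library. The 9 genes outside the filter had at most 8 counts in any library. These were the ligands FASLG, LTA, TNFSF8, TNFSF11 and TNFSF18 and the receptors TNFRSF4, TNFRSF6B, TNFRSF13B and TNFRSF17, and FASLG, TNFRSF6B and TNFRSF13B had 0 counts in all 4 libraries. A count of 0 allows up to 3 counts, which is 0.0262 to 0.0332 CPM. Another 6 of the tested genes (TNF, LTB, TNFSF4, CD27, TNFRSF18 and EDA2R) stayed under 1 CPM in every library, with 0 to 51 counts. CPM here means the count per unit of library size after TMM, a scaling on the bulk of the genes.

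**Figure D1:**
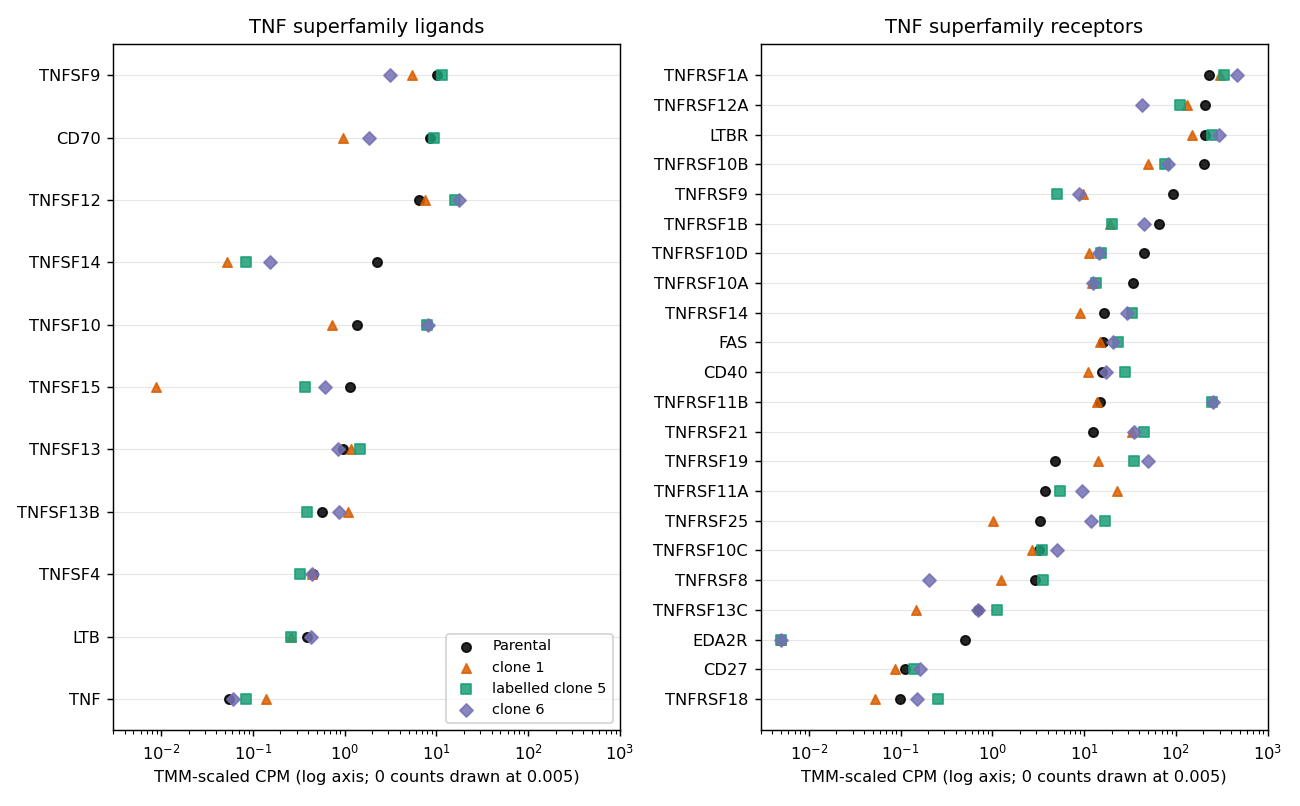
Level of each tested ligand (left) and receptor (right) in TMM-scaled CPM on a log axis, 1 point per library, ordered by the parental level, with 0 counts drawn at 0.005. TNFRSF9, TNFRSF10A, TNFRSF10B, TNFRSF10D and TNFSF14 have the parental point far to the right of all 3 clones, and TNFRSF19 and TNFRSF21 have it to the left.

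With edgeR's quasi-likelihood test and Benjamini-Hochberg adjustment over all 22511 tested genes, 0 members passed 0.05 (lowest adjusted p 0.259), against 1 gene of the whole table (0.00444%). At an unadjusted p under 0.05 the count was 8 members, and 11.5% of all tested genes. The criterion used here for a call was an unadjusted p under 0.05 with a log2 fold change above 1 or below -1. It was met by 8 of the 33 tested members (24.2%) against 9.58% of all tested genes. Lower in the clones were 6 members (TNFRSF9, TNFSF14, EDA2R, TNFRSF10A, TNFRSF10B and TNFRSF10D), with a background of 5.34%, and higher were 2 (TNFRSF21 and TNFRSF19), with a background of 4.24%. EDA2R passed the filter only through the parental library, where it is high, so its direction was fixed by the filter and its call is no support. Among the 30 members that passed in both groups, 5 were lower (16.7%, against 5.66% of the 18809 such genes) and 2 higher (6.67%, against 3.82%). With DESeq2's Wald test, 7 members had an adjusted p under 0.05, 5 lower and 2 higher, against 6.18% of the genes that received one. They are the 8 named genes without EDA2R, to which DESeq2 gave no adjusted p. The median log2 fold change of the tested members was 0.22, beside 0.10 for all tested genes, and 0.18 beside -0.01 for those that passed in both groups. The parental group has 1 library, so only the clones give the spread, which is assumed to hold for it, and exact permutation of these 4 libraries has a smallest p of 0.25. The labels do not give the number of cultures, and p-values measure the spread between these clones.

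**Figure D2:**
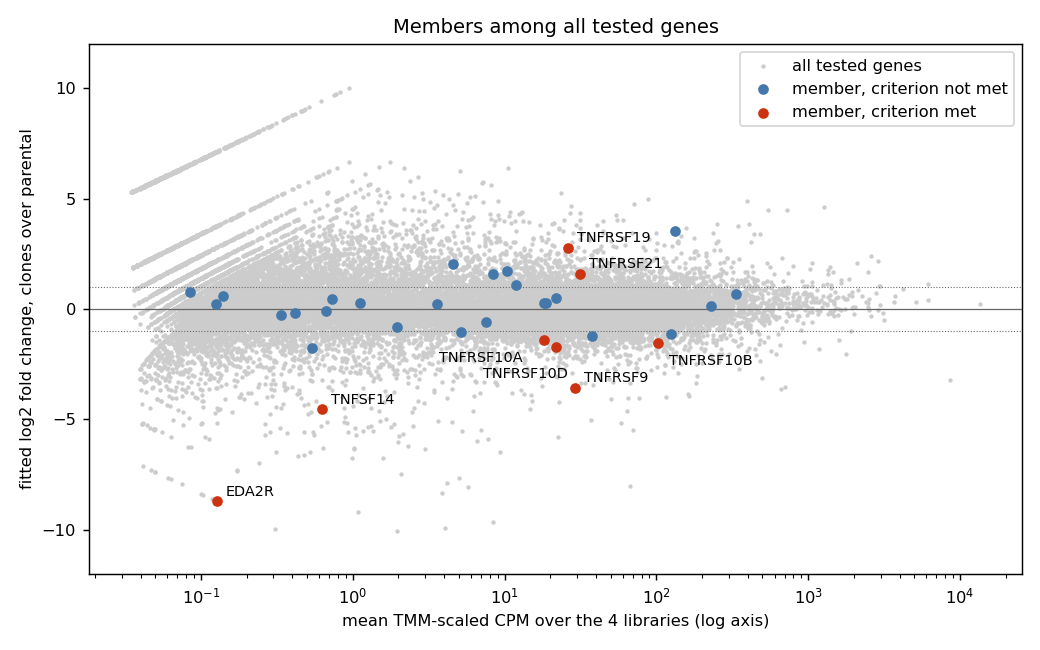
Fitted log2 fold change of the clones over the parental library against the mean TMM-scaled CPM of the 4 libraries (log axis), for all 22511 tested genes (grey) and for the 33 tested members (coloured by the criterion, those that met it named). Dotted lines mark 1 and -1, the diagonal rows at the left are genes with few or 0 counts in a group, and the point of EDA2R, at 0 in all clones, has no fold that can be read from it.

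TNFRSF9 (ENSG00000049249, chromosome 1 of GRCh38 from 7915894 to 7943165), a costimulatory receptor best known from activated T cells, showed the largest fitted difference among the receptors with at least 1 CPM in a library. It was at 93.4 CPM in parental cells, against 9.71 in the clone 1 library, 5.03 in that labelled clone 5 and 8.92 in that of clone 6. All 3 clones lay far below the parental library, by 9.62-fold, 18.6-fold and 10.5-fold. The log2 fold change was -3.57 (standard error 0.46, adjusted p = 0.259 in edgeR's quasi-likelihood test). DESeq2's Wald test gave it an adjusted p of 2.12e-07. Its ligand TNFSF9, from 6530999 to 6535928 on chromosome 19, was at 10.1 CPM in parental cells, against 5.49 in the clone 1 library, 11.5 in that labelled clone 5 and 3.15 in that of clone 6. The ligand was thus not on 1 side of the parental level (log2 fold change -0.59, standard error 0.80).

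TNFSF14 (ENSG00000125735, chromosome 19 from 6661253 to 6670588), known as LIGHT, is a ligand of TNFRSF14 and LTBR that activates lymphoid and stromal cells. It had 202 counts in the parental library (2.23 CPM), against 6 in the clone 1 library, 9 in that labelled clone 5 and 15 in that of clone 6. Every clone was far below the parental library, by 42.7-fold, 26.5-fold and 14.7-fold. On the log2 scale the fitted fold change was -4.52 (standard error 0.80, adjusted p = 0.275 in edgeR's quasi-likelihood test), the lowest of the ligands. DESeq2's Wald test gave an adjusted p of 0.000606. The receptors of this ligand did not share its direction. TNFRSF14 was at 16.6 CPM in parental cells, against 9.13 in the clone 1 library, 33.0 in that labelled clone 5 and 29.05 in that of clone 6, and LTBR was at 210.4, 151.4, 250.9 and 296.7 CPM in the same order. For both, clone 1 was below and the other clones above the parental level.

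Upstream sequences are shown for the 5 members that met the criterion and had an entry in the promoter table used here: TNFRSF9, TNFSF14 and EDA2R, lower, and TNFRSF19 and TNFRSF21, higher. TNFRSF10A, TNFRSF10B and TNFRSF10D, also lower, were not searched. They are the 250 bases before the first start listed for each gene by RefSeq (GRCh38.p14), and 29 of the 42 members had such an entry. The capitals mark matches, on either strand, to the NF-kappaB consensus of 10 bases and to the AP-1 motif TGANTCA. In TNFRSF9 (chr1:7940840-7941089, minus strand) the kappaB match lies 74 to 64 bases before the start and the AP-1 match 44 to 38 bases before it, and this RefSeq start lies inside the span that the files give the gene. In TNFSF14 (chr19:6670161-6670410, minus strand) the kappaB match lies 192 to 182 bases before the start and the AP-1 match 166 to 160 bases. The windows of TNFRSF9 and TNFSF14 lie wholly inside the spans that the files give these genes, and those of EDA2R and TNFRSF19 lie partly inside. Each kappaB stretch holds 2 matches shifted by 1 base, and no kappaB match of a member overlaps an AP-1 match. In EDA2R (chrX:66639270-66639519, minus strand), TNFRSF21 (chr6:47309906-47310155, minus strand) and TNFRSF19 (chr13:23570162-23570411, plus strand) the shown window holds neither motif.
TNFRSF9: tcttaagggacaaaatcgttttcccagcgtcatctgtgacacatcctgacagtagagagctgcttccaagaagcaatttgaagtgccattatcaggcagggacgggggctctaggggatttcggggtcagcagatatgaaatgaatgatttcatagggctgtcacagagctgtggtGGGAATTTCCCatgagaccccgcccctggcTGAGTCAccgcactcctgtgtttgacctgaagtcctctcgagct
TNFSF14: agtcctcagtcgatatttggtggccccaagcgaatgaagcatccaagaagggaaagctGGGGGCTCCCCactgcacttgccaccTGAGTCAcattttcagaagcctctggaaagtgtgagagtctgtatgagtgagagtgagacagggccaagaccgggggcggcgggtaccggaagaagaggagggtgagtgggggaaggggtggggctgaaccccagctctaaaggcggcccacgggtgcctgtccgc
EDA2R: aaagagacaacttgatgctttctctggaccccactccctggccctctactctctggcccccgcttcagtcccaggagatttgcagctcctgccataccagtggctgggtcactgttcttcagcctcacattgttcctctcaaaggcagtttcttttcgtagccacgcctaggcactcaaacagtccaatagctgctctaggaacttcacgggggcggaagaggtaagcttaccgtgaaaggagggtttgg
TNFRSF21: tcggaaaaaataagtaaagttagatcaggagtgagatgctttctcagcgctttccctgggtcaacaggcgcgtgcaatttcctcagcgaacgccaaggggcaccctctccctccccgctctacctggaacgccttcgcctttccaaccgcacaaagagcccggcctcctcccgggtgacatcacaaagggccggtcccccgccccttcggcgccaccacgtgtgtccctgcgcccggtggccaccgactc
TNFRSF19: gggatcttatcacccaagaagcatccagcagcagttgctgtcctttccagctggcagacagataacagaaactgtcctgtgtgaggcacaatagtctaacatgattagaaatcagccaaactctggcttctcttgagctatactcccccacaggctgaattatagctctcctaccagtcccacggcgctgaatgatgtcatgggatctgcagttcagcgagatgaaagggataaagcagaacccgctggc

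Counting every start listed for a gene, 9 of the 29 members held the kappaB consensus (31%) and 11.8% of all listed genes did. The AP-1 motif was held by 6 of the 29 (20.7%) and by 8.06% of all listed genes. A match describes letters in a window and not a site in use. The members with the kappaB consensus were FAS, LTA, LTB, TNFRSF14, TNFRSF19 (at its other listed start), TNFRSF9, TNFSF11, TNFSF13 and TNFSF14, of which TNFRSF9, TNFSF14 and TNFRSF19 met the criterion. The members with the AP-1 motif were CD27, EDA2R (at its other listed start), FAS, TNFRSF9, TNFSF14 and TNFSF15.

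TRAIL (TNFSF10) binds TNFRSF10A and TNFRSF10B, which carry death domains, the decoys TNFRSF10C and TNFRSF10D, and the soluble decoy TNFRSF11B (osteoprotegerin). TNFRSF10B (ENSG00000120889, chromosome 8 from 23020133 to 23069179), an inducible death receptor, was at 201.5 CPM in parental cells, against 49.7 in the clone 1 library, 76.8 in that labelled clone 5 and 81.3 in that of clone 6. All clones were lower, by 4.06-fold, 2.62-fold and 2.48-fold (log2 fold change -1.54, standard error 0.38, adjusted p = 0.332 in edgeR's quasi-likelihood test). TNFRSF10A (ENSG00000104689, chromosome 8 from 23190452 to 23225126) was at 34.3 CPM in parental cells, against 12.3 in the clone 1 library, 13.4 in that labelled clone 5 and 12.6 in that of clone 6. The clones lay close together, with a mean of 12.8 ± 0.574 (SD, n = 3), and below the parental level (log2 fold change -1.42, standard error 0.30, adjusted p = 0.310 in edgeR's quasi-likelihood test). TNFRSF10D (ENSG00000173530, chromosome 8 from 23135588 to 23164030), whose death domain is truncated, was at 45.5 CPM in parental cells, against 11.2 in the clone 1 library, 15.2 in that labelled clone 5 and 14.6 in that of clone 6 (log2 fold change -1.73, standard error 0.34, adjusted p = 0.283 in edgeR's quasi-likelihood test). The adjusted p of DESeq2's Wald test was 0.0361 for TNFRSF10B, 0.00474 for TNFRSF10A and 0.00257 for TNFRSF10D.

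TNFRSF10C (ENSG00000173535, chromosome 8 from 23084355 to 23117437), the decoy held at the membrane by a lipid anchor, lies between TNFRSF10B and TNFRSF10D and did not go with them. It was at 3.22 CPM in parental cells, against 2.69 in the clone 1 library, 3.51 in that labelled clone 5 and 5.02 in that of clone 6. The parental level lay within the range of the clones (log2 fold change 0.22, standard error 0.58). These receptors are paralogs, and how the counting treated reads that fit more than 1 of them is not given in the sources used here.

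TNFSF10 and TNFRSF11B split the clones. TNFSF10 (chromosome 3 from 172505508 to 172523507) had 124 counts in parental cells, against 83 in the clone 1 library, 840 in that labelled clone 5 and 806 in that of clone 6. In CPM, clone 1 was 1.90-fold below the parental library and the others 5.74-fold and 5.96-fold above it. TNFRSF11B (chromosome 8 from 118923557 to 118952200), which also binds the RANK ligand, was at 15.0 CPM in parental cells, against 13.9 in the clone 1 library, 245.6 in that labelled clone 5 and 252.7 in that of clone 6. Clone 1 and the parental library differed by a log2 ratio of -0.10 (exact 95% interval -0.21 to 0.00), while the other clones stood 16.4-fold and 16.9-fold above. With this spread the fitted change was 3.51 on the log2 scale, with a standard error of 1.46 and an adjusted p of 0.523 in edgeR's quasi-likelihood test, and TNFSF10 had 2.03 (standard error 1.32, adjusted p = 0.630). Without clone 1 the fitted values were 4.06 for TNFRSF11B and 2.55 for TNFSF10 on the log2 scale. Only the library labelled clone 5 and clone 6, nearly equal for these genes, then give the spread. That both met the criterion in that fit is therefore no added support.

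Levels of different genes are compared per kilobase of exon. TNFRSF10A and TNFRSF10B together made up 72.3% of the summed CPM per kilobase of the 5 TRAIL-binding receptors in the parental library, 60.2% in clone 1 and 17.4% in each of the library labelled clone 5 and clone 6. Without TNFRSF11B, their share of the 4 TNFRSF10 receptors was 78.2% in the parental library and 76.7% to 77.5% in the clones. The summed level of both death receptors was 50.7 CPM per kilobase in the parental library and 13.8 to 20.0 in the clones. These shares were chosen after the values were seen.

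**Figure D3:**
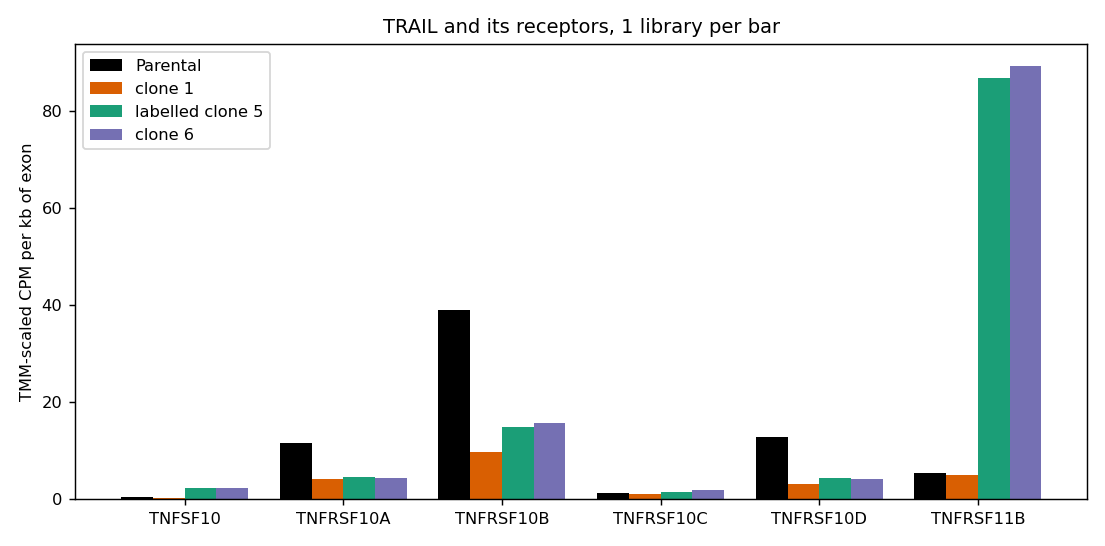
TMM-scaled CPM per kilobase of exon for TRAIL (TNFSF10) and the 5 receptors that bind it, 1 bar per library. The parental bars are the highest for TNFRSF10A, TNFRSF10B and TNFRSF10D, and TNFRSF11B reaches 86.9 and 89.4 in the library labelled clone 5 and clone 6 against 5.29 in the parental library and 4.92 in clone 1.

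TNF itself had 5 counts in parental cells, against 16 in the clone 1 library, 9 in that labelled clone 5 and 6 in that of clone 6, which is at most 0.140 CPM. The exact interval of each ratio to the parental library included 0 on the log2 scale, so no difference was detectable at this depth. TNFRSF1A, the widely expressed TNF receptor with a death domain, was at 231.2 CPM in parental cells, against 301.4 in the clone 1 library, 335.2 in that labelled clone 5 and 465.6 in that of clone 6. All clones were above the parental level, by 1.30-fold, 1.45-fold and 2.01-fold (log2 fold change 0.67, standard error 0.38). TNFRSF1B, the TNF receptor without a death domain, was at 66.2 CPM in parental cells, against 19.3 in the clone 1 library, 20.2 in that labelled clone 5 and 44.8 in that of clone 6. It was lower in all clones (log2 fold change -1.23, standard error 0.59, adjusted p = 0.477 in edgeR's quasi-likelihood test). It met the criterion only without clone 6, the clone nearest the parental level, at -1.74, which is no added support. FAS, the receptor of FASLG, was at 16.1 CPM in the parental library and at 14.9, 23.2 and 20.6 in clones 1, 5 (as labelled) and 6. CD40, a receptor of antigen-presenting cells, was at 15.5 CPM and at 11.02, 28.3 and 17.5 in the same order. For both the parental level lay inside the range of the clones.

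TNFRSF12A (chromosome 16 from 3018445 to 3022383), the receptor of TWEAK, had the highest level per kilobase of all members in the parental library, 113.9 CPM per kilobase. TNFRSF1A followed with 57.7, TNFRSF10B with 39.1, LTBR with 33.5 and TNFRSF1B with 17.3. In clone 1 and the clone 6 library the first place went to TNFRSF1A, with 75.3 and 116.3, and in the library labelled clone 5 TNFRSF11B (86.9) stood next to TNFRSF1A (83.7). With 1 library each, the order of near neighbours has no replicate check. TNFRSF12A was at 210.5 CPM in parental cells, against 131.5 in the clone 1 library, 110.8 in that labelled clone 5 and 43.0 in that of clone 6, so all clones were lower, the last by 4.90-fold (log2 fold change -1.15, standard error 0.66, adjusted p = 0.536 in edgeR's quasi-likelihood test). Its ligand TWEAK, encoded by TNFSF12, was at 6.43 CPM in parental cells, against 7.45 in the clone 1 library, 15.9 in that labelled clone 5 and 17.5 in that of clone 6. Here all clones were higher, clone 1 by 1.16-fold and the others by 2.47-fold and 2.72-fold (log2 fold change 1.08, standard error 0.59, adjusted p = 0.555).

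TNFRSF21 (ENSG00000146072, chromosome 6 from 47231532 to 47309905), a death domain receptor studied mainly in neurons and lymphocytes, had 1118 counts in parental cells, against 3827 in the clone 1 library, 4759 in that labelled clone 5 and 3451 in that of clone 6. In CPM all clones were higher, by 2.70-fold, 3.61-fold and 2.83-fold (log2 fold change 1.61, standard error 0.32, adjusted p = 0.327 in edgeR's quasi-likelihood test). TNFRSF19 (ENSG00000127863, chromosome 13 from 23570370 to 23676104), an orphan receptor linked to stem cells of several epithelia, was at 4.86 CPM in parental cells, against 14.1 in the clone 1 library, 35.3 in that labelled clone 5 and 49.9 in that of clone 6. It too was higher in every clone, by 2.89-fold, 7.27-fold and 10.3-fold (log2 fold change 2.77, standard error 0.73, adjusted p = 0.370). DESeq2's Wald test gave adjusted p-values of 0.00435 for TNFRSF21 and 0.0120 for TNFRSF19.

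EDA2R (ENSG00000131080, chromosome X from 66595637 to 66639298), a receptor for the ectodysplasin isoform EDA-A2, had 46 counts in the parental library and 0 in each clone. Against a floor of 3 counts per library, its level was at least 19.5-fold lower in clone 1, 18.1-fold lower in the library labelled clone 5 and 16.7-fold lower in clone 6. The adjusted p was 0.332 in edgeR's quasi-likelihood test, and its fitted fold change, which places it among the members that met the criterion, is no bound and is not printed. The ligand gene EDA was at 14.6 CPM in the parental library and 10.2 to 22.4 in the clones.

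TNFRSF11A, the receptor RANK, was at 3.79 CPM in parental cells, against 22.6 in the clone 1 library, 5.48 in that labelled clone 5 and 9.48 in that of clone 6. Every clone was above the parental library, by 5.96-fold, 1.44-fold and 2.499-fold (log2 fold change 1.72, standard error 0.86, adjusted p = 0.541 in edgeR's quasi-likelihood test). The RANK ligand TNFSF11 had 1 count in the parental library and 0 in the clones. Clone 1, which had the highest RANK level, was also the clone without a higher level of the decoy TNFRSF11B. TNFRSF25, a death domain receptor of lymphocytes, had 299 counts in parental cells, against 117 in the clone 1 library, 1811 in that labelled clone 5 and 1183 in that of clone 6, and its ligand TNFSF15 had 104, 1, 40 and 61 counts in the same order. The receptor was thus below the parental level in clone 1 and above it in the others. For TNFSF15 all clones were lower, clone 1 by a log2 ratio of -7.04 (exact 95% interval -12.36 to -4.53), and the fitted value was -1.78 on the log2 scale (standard error 1.77, adjusted p = 0.701 in edgeR's quasi-likelihood test).

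CD70 is the ligand of CD27, a costimulatory receptor of lymphocytes. CD70 had 762 counts in parental cells, against 109 in the clone 1 library, 998 in that labelled clone 5 and 184 in that of clone 6, so in CPM clones 1 and 6 lay 8.87-fold and 4.52-fold below the parental library and the remaining one beside it. CD27 had 10 to 16 counts in every library. TNFRSF8, the lymphoid activation receptor CD30, followed another order, with 261 counts in parental cells, against 141 in the clone 1 library, 379 in that labelled clone 5 and 20 in that of clone 6. Neither CD70 nor TNFRSF8 had its clones on 1 side of the parental level. The B cell survival ligand TNFSF13B had 51 parental counts and 124, 42 and 86 counts in clones 1, 5 (as labelled) and 6. Its relative TNFSF13 had 88 parental counts and 135, 159 and 84, and the receptor TNFRSF13C had 63 and 17, 119 and 69, in the same order. For these 3 genes the parental level in CPM lay within the range of the clones.

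**Figure D4:**
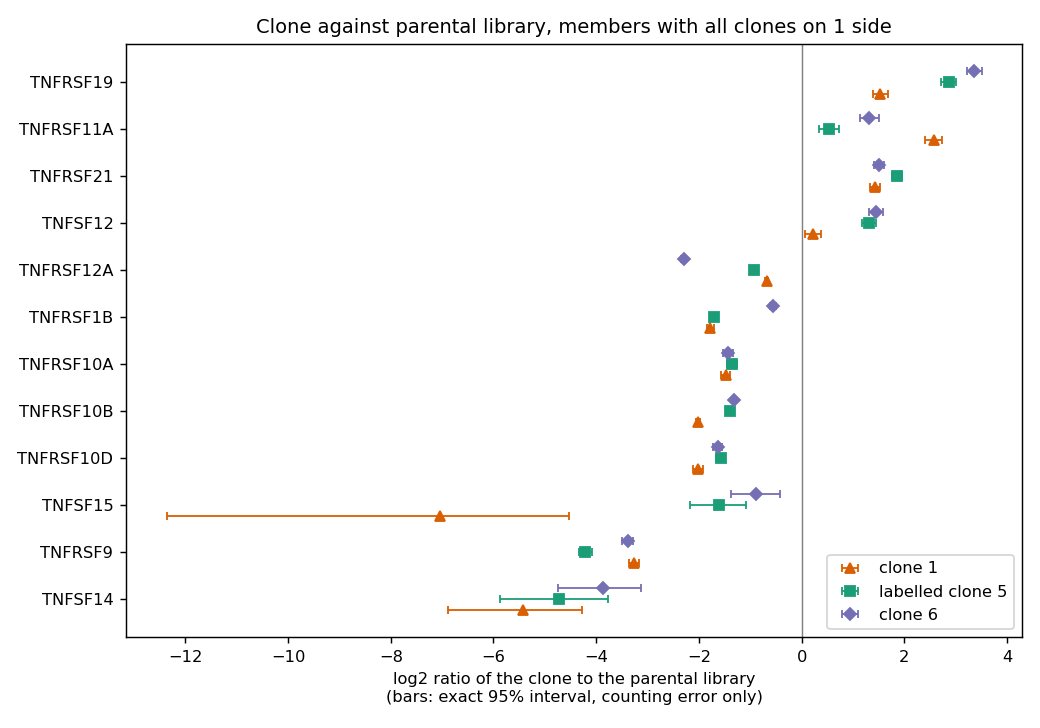
Log2 ratio of each clone to the parental library for the 12 members named by the rule other than EDA2R, with bars for the exact 95% interval of the counts (counting error only). The 3 clones lie together for TNFRSF10A and TNFRSF21, clone 1 stands apart for TNFSF12, TNFSF15, TNFRSF11A and TNFRSF19, and clone 6 for TNFRSF12A and TNFRSF1B.

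Over the 33 tested members, 10 were lower in all 3 clones than in the parental library (30.5% of all tested genes were) and 6 were higher in all 3 (28.6%). The 10 include EDA2R and the 6 include TNF, each of which passed the filter only through the group where it was higher, so neither is support. The other 17 had the parental level within the range of the clones or tied. Among the 27 members that reached 1 CPM somewhere, 5 were lower by over 1 on the log2 scale in every clone (5.93% of the 15280 genes at that level) and 2 were higher (5.39%). Taken clone by clone, 14 of the 27 lay over 1 from the parental library in clone 1 (background 29.9%), 3 higher (13.7%) and 11 lower (16.3%). The library labelled clone 5 had 13 (28.9%), 6 higher (15.5%) and 7 lower (13.4%), and clone 6 had 17 (28.6%), 8 higher (14.5%) and 9 lower (14.1%). The 3 clones share 1 parental library, so these counts are not independent between clones.

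The clones also differed from each other. Of the same 27 members, 14 had a log2 ratio beyond 1 or -1 between clone 1 and the library labelled clone 5 (24% of all genes at that level) and 13 between clone 1 and clone 6 (23.5%). Between the library labelled clone 5 and clone 6 it was 6 (11.5%), 2 of them higher in clone 6 (4.33%) and 4 lower (7.13%). In the pair of clone 1 and the library labelled clone 5, 12 members were higher in the latter (14.6%) and 2 lower (9.46%), and in that of clone 1 and clone 6, 10 were higher in clone 6 (13.5%) and 3 lower (9.99%). Members above the parental library by over 1 in both of those libraries, with clone 1 within 1 of it, numbered 3, TNFRSF11B, TNFSF10 and TNFSF12 (3.74%). Each clone is 1 library, so these differences have no replicate check.

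Some of these genes share exon positions with other genes, and the labels name featureCounts without its strand setting or its handling of shared positions. No base was shared for 30 of the 42 members, among them TNFRSF9, TNFSF14, TNFRSF10C, TNFRSF10D, TNFRSF11A, TNFRSF11B, TNFRSF19, TNFRSF21 and EDA2R. TNFRSF6B lies wholly within the exons of the readthrough gene RTEL1-TNFRSF6B, which had 344 counts in the parental library and 470 to 1255 in the clones, so its 0 counts do not show that it is absent. TNFSF13 shared 55.5% and TNFSF12 33.2% of their exon bases, mainly with the readthrough TNFSF12-TNFSF13, which had at most 6 counts. CD27 shared 39.1%, mainly with CD27-AS1, and TNFRSF10A shared 16.6% with antisense genes.

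The pathway around the receptors was described by 5 lists of genes. Of 31 tested adaptors and signalling proteins, 5 met the criterion (background 9.58%), all lower in the clones (RBCK1, TNFAIP3, RIPK2, TRAF3 and TNIP1, background 5.34%), with a median log2 fold change of -0.34. RBCK1, a subunit of the linear ubiquitin ligase at TNF receptors, was at 595.0 CPM in parental cells, against 130.3 in the clone 1 library, 141.0 in that labelled clone 5 and 162.6 in that of clone 6 (log2 fold change -2.04, standard error 0.30, adjusted p = 0.261 in edgeR's quasi-likelihood test). BIRC3, an inhibitor of apoptosis bound to TRAF2, was at 33.8 CPM against 13.9, 3.34 and 3.11 in the same order and did not meet the criterion (-2.32, standard error 1.00). MAP3K14, the kinase of noncanonical NF-kappaB, was at 7.97 CPM in parental cells, against 13.5 ± 3.10 (SD, n = 3) in the clones, and RNF31, another subunit of the linear ubiquitin ligase, at 23.4 and 28.7 ± 2.48. Neither met the criterion.

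Of 16 death receptor effectors, 4 met the criterion (background 9.58%), 2 lower (5.34%) and 2 higher (4.24%). The initiator caspase CASP8 was not among them, at 74.2 CPM in the parental library and 45.1 to 62.3 in the clones. Lower were XIAP, an inhibitor of caspases, with 80.5 CPM and 39.7 ± 2.65 (SD, n = 3), and BCL2, with 39.1 and 14.4 ± 2.93. Higher were the effector caspase CASP6, with 8.85 CPM and 20.9 ± 1.57, and APAF1, the apoptosome scaffold, with 13.4 and 29.5 ± 0.973. Their log2 fold changes were -1.02, -1.44, 1.24 and 1.14, each with an adjusted p between 0.332 and 0.344 in edgeR's quasi-likelihood test, and the median of the list was -0.11. With clone 6 left out, 1 of the 16 met the criterion. Every fit with a clone left out has fewer clones to give the spread. Leaving out either other clone lowered the count less, and the reason for this was not tested. The clone 6 levels of XIAP (38.7 CPM), CASP6 (21.4) and APAF1 (28.9) lay within the range of the other clones. BCL2 was lowest in clone 6, at 11.02 CPM against 16.3 in clone 1 and 15.9 in the library labelled clone 5.

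Among 29 tested genes that TNF is known to induce, 17 met the criterion, all lower (background 5.34%), and 24 were lower in all 3 clones (background 30.5%). Both counts include CCL20, which had 42 counts in the parental library against 4, 1 and 1 in clones 1, 5 (as labelled) and 6. Like EDA2R, CCL20 passed the filter only through the parental library, so its direction was fixed by the filter and it is no support. A minimum of 1 CPM in a library, which leaves CCL20 out, gave 16 genes meeting the criterion. The median log2 fold change was -1.89. The chemokine gene CXCL1 was at 8.95 CPM in parental cells, against 0.398 ± 0.0749 (SD, n = 3) in the clones (log2 fold change -4.49, standard error 0.54, adjusted p = 0.259 in edgeR's quasi-likelihood test). LIF, an IL6-type cytokine, was at 52.2 CPM and 2.26 ± 1.17 (-4.53, standard error 0.70, adjusted p = 0.273). NFKBIA, the NF-kappaB inhibitor, was at 166.8 CPM and 49.8 ± 12.3 (-1.74, standard error 0.36). This list was written with the lower level of inflammatory genes in these samples already known, so its direction is no independent evidence. TNFAIP3, BIRC3 and TRAF1 also stand in the list of adaptors. Not lower in every clone were TNFAIP8, TRAF1, CXCL10, BCL3 and VCAM1. VCAM1, an adhesion molecule, was at 67.8 CPM in parental cells, against 13.6 in the clone 1 library, 152.2 in that labelled clone 5 and 165.5 in that of clone 6.

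Of 7 shedding and maturation enzymes, 2 met the criterion, both lower (background 5.34%). ADAM17, the sheddase of TNF, was at 79.7 CPM in parental cells, against 38.7 ± 7.90 (SD, n = 3) in the clones (log2 fold change -1.04, standard error 0.33, adjusted p = 0.365 in edgeR's quasi-likelihood test). Its cofactor RHBDF2 was at 56.8 CPM and 16.5 ± 5.58 (-1.78, standard error 0.48, adjusted p = 0.332), while the related RHBDF1 was at 30.0 and 47.7 ± 10.4 and did not meet the criterion. The list had a median log2 fold change of -0.26. Among the family genes outside the symbol rule, CD40LG and EDAR had at most 8 counts and 3 were tested, with a median of 0.09. NGFR, the neurotrophin receptor, met the criterion with 24.3 CPM in parental cells, against 2.02 in the clone 1 library, 6.47 in that labelled clone 5 and 1.81 in that of clone 6 (log2 fold change -2.82, standard error 0.88, adjusted p = 0.352 in edgeR's quasi-likelihood test).

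**Figure D5:**
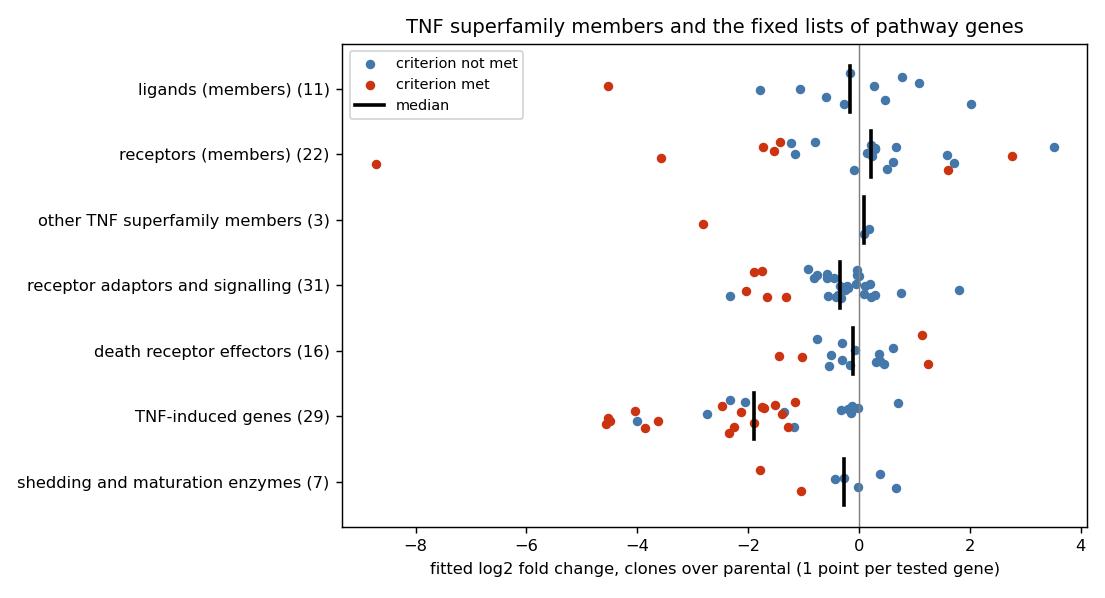
Fitted log2 fold change of the clones over the parental library for each tested ligand, receptor and gene of the 5 lists, 1 point per gene with the number of genes in parentheses, coloured by the criterion, with the median of each list as a black bar (the leftmost receptor is EDA2R, whose fitted value is no bound). The TNF-induced genes have their median at -1.89, and the other medians lie between -0.34 and 0.22.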

How the data were processed

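Per the labels, total RNA of 4 libraries was enriched for poly(A) mRNA, and NEBNext Ultra II libraries were sequenced from both ends. The submitters' processing notes name bcl2fastq 2.17, Trimmomatic 0.36, STAR 2.5.2b, featureCounts from Subread 1.5.2, DESeq2 and the build GRCh38, while strand setting and annotation release are not given in the sources used here. The deposited values are raw counts, made by the authors with no scaling. Of 57500 identifiers, 56898 had a symbol in GENCODE release 29, and coordinates are those of the files.

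The counts were analysed with edgeR 4.0.16 in R 4.3.3 (filterByExpr, TMM, estimateDisp, glmQLFit, glmQLFTest, two-sided, Benjamini-Hochberg over 22511 genes), with 2 residual and 2.75 prior degrees of freedom. Standard errors came from the quasi-likelihood information matrix. Ratios of 2 libraries carry exact Clopper-Pearson 95% intervals that, like the floor of 3 counts, cover counting error only. Full statistics went to members that met the criterion and to the 12 largest fold changes with at least 1 CPM in a library and all clones on 1 side. From each list, 2 rises and 2 falls of that kind were named where there were any, and other list genes were chosen after their values were seen. The members, lists and tests were chosen with earlier results of these data known. Fits and intervals were tested on simulated data. The result of 1 marker list is not reported here. Alternatives were scaling by RLE, by the upper quartile or by library size alone, no filter, a minimum of 1 CPM, DESeq2 1.42.0, robust and bias-adjusted fits, and each clone left out. Python 3.11.15, pandas 2.3.3, scipy 1.17.1 and matplotlib 3.10.9 were used for the rest.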

Additional observations from a re-analysis of the deposited data

How the results depend on the processing

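The count of members with an adjusted p under 0.05 was 0 under all edgeR alternatives and 7 with DESeq2's Wald test, and the 8 members that met the criterion also met it under every alternative except that EDA2R was removed by a minimum of 1 CPM in a library. With each clone left out, 2 to 6 members were higher by the criterion and 6 to 7 lower, against 2 and 6. Without clone 1, TNFRSF11B, TNFRSF25, TNFSF10 and TNFSF12 were added. DESeq2 added TNFRSF11B. Leaving out the library labelled clone 5 added CD70 and TNFRSF11A, and leaving out clone 6 added TNFRSF1B. For the fits with a clone left out, the share of all tested genes meeting the criterion is not given here. Their counts of members and of list genes thus have no background. The median log2 fold change of the members lay between -0.05 (without clone 6) and 0.33, so it was below 0 in that fit. Of the lists, the death receptor effectors had 1 to 3 genes meeting the criterion with each clone left out, against 4, and the shedding enzymes had 1 to 2, against 2, and 1 with upper quartile scaling. Upper quartile scaling moved the median of all genes by 0.10 and no filter by 0.21 on the log2 scale. An alternative chosen after seeing the data, with only genes that passed the filter in both groups, left 5 members lower and 2 higher. No direction of a member named with full statistics reversed. No paired analysis was possible because the parental cells have 1 library. Depth limits TNF, CD27, TNFRSF18 and the 9 members outside the filter, which had at most 16, 16, 27 and 8 counts.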

Other observations

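Members that lie close together in the genome did not all differ from the parental library in the same way. On chromosome 19, TNFSF9, CD70 and TNFSF14 follow each other between 6530999 and 6670588. TNFSF14 was lower in all clones, while TNFSF9 and CD70 were beside the parental level in the library labelled clone 5 and below it in clones 1 and 6. On chromosome 12, TNFRSF1A was higher in all clones and its neighbour LTBR in all but clone 1. On chromosome 1, TNFRSF25, TNFRSF9, TNFRSF8 and TNFRSF1B follow each other over a wider span, between 6461151 and 12209228. TNFRSF9 and TNFRSF1B were lower in every clone. TNFRSF8 was 2.35-fold and 14.2-fold below the parental library in clones 1 and 6, and 1.23-fold above it in the library labelled clone 5. TNFRSF25 was below the parental level in clone 1 and above it in the others. On chromosome 8, the neighbours TNFRSF10A, TNFRSF10B and TNFRSF10D had 2.48-fold to 4.06-fold lower levels in each clone, whereas TNFRSF10C between them did not. These neighbourhoods were chosen after the values were seen.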
